A study of Mus musculus with 3 samples.

Results

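The maternal-effect genes of the egg described here are 10 of the 19459 named genes on a spotted mouse array: Ooep, Nlrp5, Tle6, Padi6, Nlrp4f, Nlrp14, Oas1d, Npm2, Zar1 and Dppa3. They were taken by name, as every probe that carries the gene's symbol or an older synonym, which gave 13 probes (3 for Nlrp4f, 2 for Zar1 and 1 for each of the others). Ooep stood under its older name 2410146L05Rik. The list was chosen by the values on these same arrays, above all by the difference between ADSC-iv and POF, so all values below are descriptions and no test was made on them. Total RNA came from ovaries of C57BL/6 mice, with 1 array for each of 3 treated groups in Cy5 and RNA of untreated normal mice (WT) in Cy3 on all 3 arrays. POF mice had received cyclophosphamide, an alkylating drug given to model premature ovarian failure. ADSC-iv mice were POF mice with adipose-derived stem cells injected into a vein, and ADSC-ovary mice were POF mice with such cells injected into both ovaries, so all treated groups share the drug. Ovaries were taken 1 week after treatment. The labels do not give the animals behind an array, their age, the drug dose, the donor of the cells, or whether the WT RNA was the same on all arrays, so the spread between animals is unknown and no p-value was computed. The dyes were never exchanged, and a log2 ratio to WT therefore carries any dye effect of its probe. That effect cancels in a difference between arrays, provided that the WT RNA was alike.

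An oocyte builds up messenger RNA and protein while it grows and then stops transcribing, so the embryo depends on these stores until its own genome is switched on. The products of maternal-effect genes are made in the oocyte and are needed by the embryo after fertilization. Ooep, Nlrp5 and Tle6 encode core proteins of the subcortical maternal complex, a protein assembly under the membrane of the mouse egg, and Padi6 is needed for the cytoplasmic lattices of the egg. The other members encode proteins that act on stored RNA, on chromatin or in early cleavage. In an ovary these genes are read mainly from oocytes, a small share of the tissue. In whole ovary RNA, fewer oocytes and less RNA per oocyte cannot be told apart.

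The oocyte RNA was measurable on all arrays. A spot counted as above background when it exceeded the local background by more than 2 background SDs, and 9 of the 10 members were above background in both channels of every array, Nlrp4f being the exception. Between 39.9% and 43.4% of gene probes passed on an array, and the 768 blank spots did not. Repeated control spots (48 of each of 4 genes) had SDs of 0.07 to 0.17 in log2 ratio within an array, and probes of a gene differed with a median SD of 0.13 to 0.16. These technical spreads are the only errors the arrays give, together with the range of the 3 WT signals of a gene.

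The members as a group were highest in ADSC-iv ovaries. Their median log2 ratio to WT was -0.08 in POF, 0.90 in ADSC-iv and 0.10 in ADSC-ovary ovaries, while the medians of all measured genes were within 0.01 of 0. In the difference between the ADSC-iv and POF arrays, 10 of 10 members were above 0 (49.4% of 9168 measured genes were), with a median of 0.82, and 4 were at least 2-fold higher, which 0.513% of all genes were. None was 2-fold lower (0.349%). The 4 were Ooep (2.49-fold), Nlrp14 (2.41-fold), Oas1d (2.25-fold) and Dppa3 (2.02-fold). Npm2 (1.83-fold), Zar1 (1.71-fold) and Padi6 (1.63-fold) were also at least 1.5-fold higher, which makes 7 members against 4.13% of all genes. Nlrp5 (1.45-fold), Nlrp4f (1.31-fold) and Tle6 (1.07-fold) were closest to POF. Since the list was chosen with this difference known, nothing is read from these counts against their background.

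**Figure D1:**
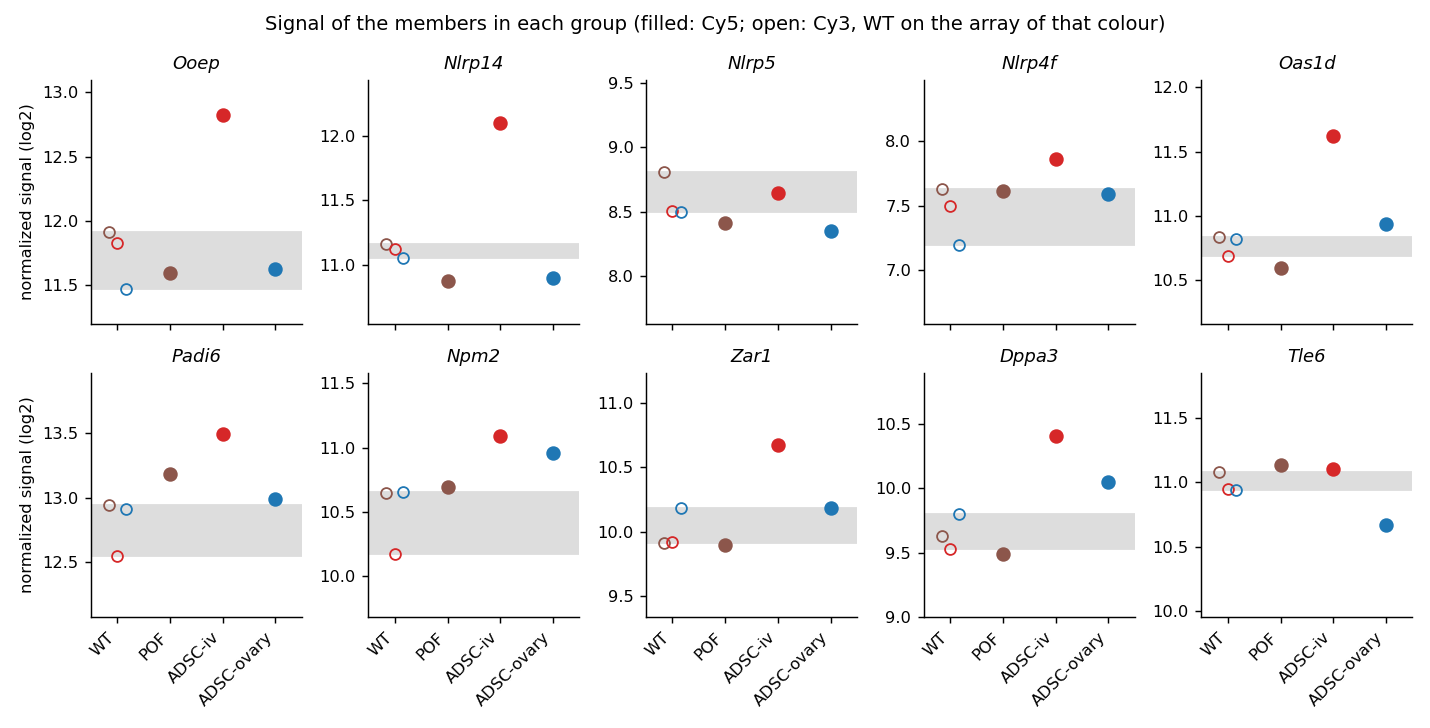
Normalized log2 signal of each of the 10 members in each group, with 1 panel per gene and an equal span on each vertical axis; filled points are the treated groups (Cy5), open points are WT (Cy3) in the colour of the array they were read on, and the grey band is the range of the 3 WT signals. The ADSC-iv point lies above the grey band in 9 of 10 panels (31% of genes with all 6 channels above background), for Tle6 only just. The band of Nlrp4f is made of WT signals not above background. The POF and ADSC-ovary points lie in the band in 2 panels each and outside it in the others. For Npm2, ADSC-ovary is at 10.96, with the highest WT signal at 10.66. Brightness differs between probes for reasons other than RNA amount, so panels are not to be compared with each other in level.

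The promoters of members that were higher together in ADSC-iv ovaries are shown beside that of Tle6, which was not, as the genomic context of the RNA measured. RefSeq (GRCm38.p6) windows were matched for 6 of the 10 members (Ooep, Nlrp5, Nlrp4f, Padi6, Zar1 and Tle6). Each sequence is the gene's strand, 5′ to 3′, over the 250 bases before the annotated start, all on minus strands. Capitals mark the letters CANNTG (E-box, the kind of site bound by helix-loop-helix factors such as FIGLA), the homeodomain motif TAATTG and its variants TAGTTG and also TAATTA (NOBOX is a homeodomain factor of the oocyte), and the TATA box as TATAAA, all searched on both strands.
Ooep, chr9:78378589-78378838: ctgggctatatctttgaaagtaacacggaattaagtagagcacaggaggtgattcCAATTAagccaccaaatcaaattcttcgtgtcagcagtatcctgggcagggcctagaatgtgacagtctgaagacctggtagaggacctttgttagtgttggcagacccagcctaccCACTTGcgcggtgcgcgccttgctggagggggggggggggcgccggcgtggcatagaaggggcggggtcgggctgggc
Padi6, chr4:140742644-140742893: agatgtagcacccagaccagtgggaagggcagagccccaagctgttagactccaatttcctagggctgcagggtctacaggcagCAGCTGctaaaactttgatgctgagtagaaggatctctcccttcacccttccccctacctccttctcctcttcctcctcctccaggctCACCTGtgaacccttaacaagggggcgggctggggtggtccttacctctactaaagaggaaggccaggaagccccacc
Zar1, chr5:72581085-72581334: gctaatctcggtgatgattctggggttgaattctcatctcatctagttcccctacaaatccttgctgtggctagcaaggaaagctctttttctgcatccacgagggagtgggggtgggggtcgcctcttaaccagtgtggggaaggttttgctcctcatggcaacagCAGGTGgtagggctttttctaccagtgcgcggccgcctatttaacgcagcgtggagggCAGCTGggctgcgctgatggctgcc
Tle6, chr10:81600901-81601150: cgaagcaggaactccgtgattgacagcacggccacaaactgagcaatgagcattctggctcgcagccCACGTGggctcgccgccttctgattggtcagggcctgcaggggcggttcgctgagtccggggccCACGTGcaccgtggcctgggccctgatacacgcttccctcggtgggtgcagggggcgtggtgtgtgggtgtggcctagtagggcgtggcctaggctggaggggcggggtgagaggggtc
In the Ooep window the E-box CACTTG begins 78 bases before the start and CAATTA, the reverse complement of TAATTG, 195 bases before it. Padi6 and Zar1 hold the E-box form CAGGTG, in Padi6 as CACCTG on the strand shown, 78 and 83 bases before their starts, and each holds the form CAGCTG as well. The Tle6 window shown holds the form CACGTG at 183 and 119 bases before the start. Tle6 and Nlrp5 have 2 windows each, and the second Tle6 window, not shown, has 4 CANNTG matches and 0 of the form CACGTG. A member was counted when any of its windows held a motif, whereas the shares of all windows are per window. CANNTG, which contains the CAGGTG and CACGTG forms, was in 6 of 6 members with a window and in 66.2% of all 32851 windows of this length. CAGGTG was in 2 of the 6 (17.2% of all windows), CACGTG in 1 (6.02%), TAATTG in 1 (7.17%), TAGTTG in 1 (5.69%), TAATTA in 1 (4.84%) and TATAAA in 1 (12.4%), the last 3 in windows of Nlrp5. A match describes letters in a window and is not evidence of binding.

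Within the subcortical maternal complex the members differed from each other. Ooep, a protein with an atypical KH domain that embryos need for development beyond the first cleavages, had a log2 signal of 11.59 in POF, 12.82 in ADSC-iv and 11.62 in ADSC-ovary ovaries, against 11.91, 11.83 and 11.47 in WT on the same arrays. ADSC-iv alone stood above the WT range, and the other treated groups lay inside it. Before normalization its Cy5 spot stood 3039.5, 8016.5 and 3231 intensity units over background on the 3 arrays, in the same order of arrays. The difference between ADSC-iv and POF was 1.32 in log2 ratio and stayed at least 2-fold in 10 of 10 alternative settings (1.10 to 1.40). Ooep was 1.79-fold lower in ADSC-ovary than in ADSC-iv ovaries.

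Nlrp5 (also called Mater), an NLRP protein at the core of the complex, was dim on this array and did not stand out in any group. Its log2 signal was 8.41 in POF, 8.64 in ADSC-iv and 8.35 in ADSC-ovary ovaries, and WT was at 8.80, 8.51 and 8.50. ADSC-iv lay inside the WT range, and POF and ADSC-ovary lay just below it. The difference between ADSC-iv and POF was 0.54, between 0.28 and 0.82 over the alternatives. The larger share of it lay in the WT channel, which was 0.30 lower on the ADSC-iv array than on the POF array. The treated channel of Nlrp5 was 0.24 higher.

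Tle6, a Groucho-family protein of the complex, had the smallest ADSC-iv difference of the 10. Its log2 signal was 11.13 in POF, 11.11 in ADSC-iv and 10.67 in ADSC-ovary ovaries, with WT at 11.08, 10.95 and 10.94. POF and ADSC-iv lay just above the WT range, while ADSC-ovary was below it. ADSC-iv minus POF was 0.10 for Tle6 and became -0.07 when arrays were centred on the median of all gene probes, where the median of all genes was -0.11. ADSC-ovary minus POF was -0.33, the lowest of the 10 members, and ran from -0.55 to -0.33 over the alternatives. Tle6 was also the only member that was brighter in the POF than in the ADSC-iv treated channel, by 0.03.

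Padi6, a peptidylarginine deiminase family member of the cytoplasmic lattices, was above all 3 WT signals in each treated group. Its log2 signal was 13.18 in POF, 13.49 in ADSC-iv and 12.99 in ADSC-ovary ovaries against 12.94, 12.55 and 12.91 in WT. The ratios to WT were 0.24, 0.95 and 0.08. ADSC-iv was the highest group, yet the WT signal was also at its lowest on that array. The Padi6 difference between ADSC-iv and POF of 0.70 was made of 0.31 in the treated channel and -0.39 in WT.

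Nlrp4f, an NLRP protein of the oocyte that associates with the complex in mice, was at the limit of detection. WT was not above background at any of its 3 probes on any array. At probe 18030, ADSC-iv (log2 signal 8.58) and ADSC-ovary (8.22) were above background and POF (8.02) was not. For the dim side, the lowest signal that counted as above background on its array or the probe's own was taken, whichever was higher. Against that level ADSC-iv was 1.44-fold over WT and 1.47-fold over POF, and ADSC-ovary 1.12-fold over WT. For POF the level was the probe's own signal, which was below detection, so these values are not lower bounds. The values over WT also compare Cy5 with Cy3 and carry any dye effect of the probe. Probe 21387 was above background in POF and ADSC-iv only, at levels under the WT level taken in this way, and probe 28924 in no channel. The averaged Nlrp4f ratios of -0.02, 0.37 and 0.39 therefore include signals with no measured level, and the POF ratio went from -0.54 to 1.67 with the processing.

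Nlrp14 and Oas1d, from gene families otherwise known in innate immunity, followed Ooep closely. Nlrp14, an NLRP protein that embryos need in early cleavage, had a log2 signal of 10.88 in POF, 12.10 in ADSC-iv and 10.90 in ADSC-ovary ovaries, against 11.16, 11.12 and 11.05 in WT. ADSC-iv was far above the narrow WT range, and POF and ADSC-ovary were both below it. The raw Cy5 spot stood 1780, 4708.5 and 1858 units over background. ADSC-iv minus POF was 1.27 (1.16 to 1.32 over the alternatives). Nlrp14 was the only member at least 2-fold lower in ADSC-ovary than in ADSC-iv ovaries (2.19-fold, where 0.328% of 9457 genes were and 0.634% were 2-fold higher), and it stayed so in 10 of 10 alternatives.

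Oas1d, an oligoadenylate synthetase family member of the oocyte without the enzyme activity of the family, had a log2 signal of 10.60 in POF, 11.62 in ADSC-iv and 10.94 in ADSC-ovary ovaries. WT was at 10.83, 10.69 and 10.82. POF was below the WT range, and both cell-treated groups were above it, ADSC-iv by far. The raw Cy5 spot stood 1442, 3282 and 1912 units over background. ADSC-iv minus POF was 1.17 (1.04 to 1.33) and ADSC-ovary minus POF 0.35 (0.17 to 0.38) for Oas1d.

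Of the members that act on chromatin, Dppa3 (Stella), which shields the maternal genome from loss of DNA methylation after fertilization, had a log2 signal of 9.49 in POF, 10.40 in ADSC-iv and 10.05 in ADSC-ovary ovaries, with WT at 9.63, 9.52 and 9.80. POF was just below the WT range, and both cell-treated groups were above it. ADSC-iv minus POF was 1.02 for Dppa3 and lay between 0.91 and 1.21 over the alternatives, at least 2-fold in 8 of 9. The alternative that left out spots with flag -100 gave no value, because the only Dppa3 spot carried that flag on the ADSC-iv array. The meaning of the flag is not given in the sources used here. Npm2, the nucleoplasmin that organizes chromatin and nucleoli in the egg, had 10.69 in POF, 11.09 in ADSC-iv and 10.96 in ADSC-ovary ovaries against 10.65, 10.17 and 10.66 in WT. All treated groups were above the 3 WT signals, POF by the least. As with Padi6, the WT signal of Npm2 was lowest on the ADSC-iv array, and the difference between ADSC-iv and POF of 0.87 held 0.40 from the treated channel and -0.47 from WT.

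Zar1, an RNA-binding protein that keeps maternal messenger RNA in store, was read by 2 probes with similar ratios to WT. Their signals differed: from the POF to the ADSC-ovary array, probe 26978 went from 9.41 to 9.94 in Cy5 and from 9.44 to 9.95 in WT. Probe 25920 went from 10.38 to 10.44 in Cy5 and from 10.38 to 10.41 in WT. Averaged, the Zar1 log2 signal was 9.90 in POF, 10.68 in ADSC-iv and 10.19 in ADSC-ovary ovaries, with WT at 9.91, 9.92 and 10.18. Only ADSC-iv was clear of the WT range. ADSC-iv minus POF was 0.88 at probe 25920 and 0.66 at probe 26978, and 0.77 for Zar1 as the mean. ADSC-ovary minus POF was 0.02, at 0.03 and 0.02 by probe.

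**Figure D2:**
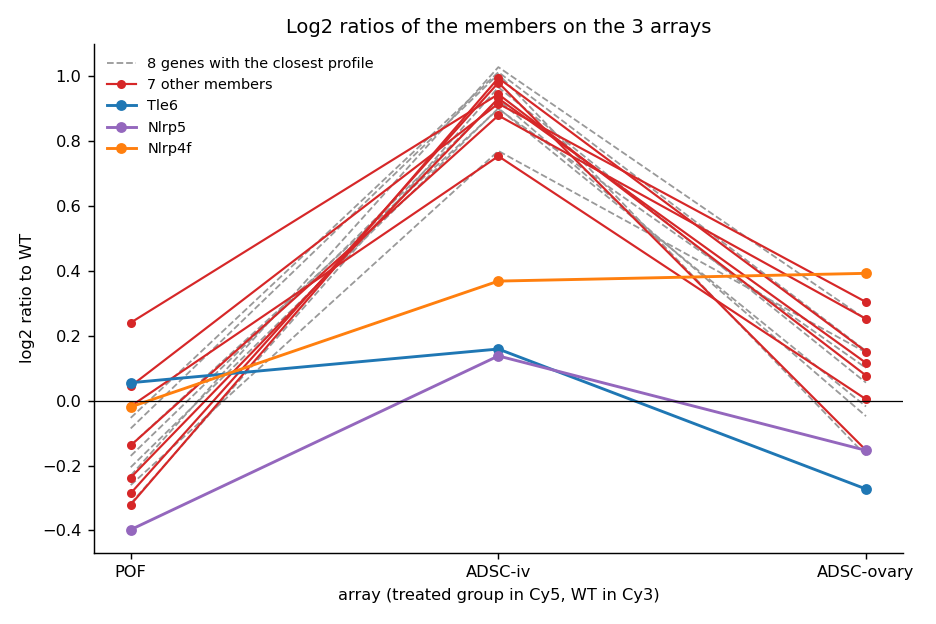
Log2 ratio to WT on each of the 3 arrays; each line is 1 gene. The 7 members in red lie between 0.75 and 0.995 on the ADSC-iv array, and Tle6 (0.16), Nlrp5 (0.14) and Nlrp4f (0.37) lie below them; dashed lines are the 8 other genes with the closest profile.

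The question raised by a ratio difference is in which channel it lay, and each channel was therefore read alone. In the treated channel, 9 of 10 members, the dim Nlrp4f among them, were brighter in ADSC-iv than in POF ovaries, with a median of 0.59 (-0.02 for all genes). Of these, 5 were at least 1.5-fold brighter (5.21% of 8021 genes were): Ooep (1.23), Nlrp14 (1.23), Oas1d (1.03), Dppa3 (0.91) and Zar1 (0.78). In the same 5 genes the treated-channel difference exceeded the whole range of the 3 WT signals. The share of all genes for which this held was not counted. Over all genes, differences between these arrays were wider in Cy5 (SD 0.37) than in Cy3 (0.23). In the WT channel, like WT RNA would leave only differences between spots and arrays. There 9 of 10 members, with the undetected Nlrp4f among them, were dimmer on the ADSC-iv than on the POF array. Their median was -0.14 (-0.02 for all genes). None reached 1.5-fold (0.598% of all genes did, downward). Both channels of a gene can move together: in ADSC-iv minus POF, Cdx2 differed by 0.85 in Cy5 and 1.02 in Cy3. For Padi6, Npm2, Nlrp5 and Tle6 the WT difference was larger in size than the treated one. The shares of all genes that were brighter, dimmer or more different in WT were not counted. The WT part depended on how channels were scaled: with each channel only centred on its median, the members' WT median was 0.03, Padi6 stood at -0.20 and Npm2 at -0.30. Whether the WT differences were in the RNA or in the arrays was not tested.

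**Figure D3:**
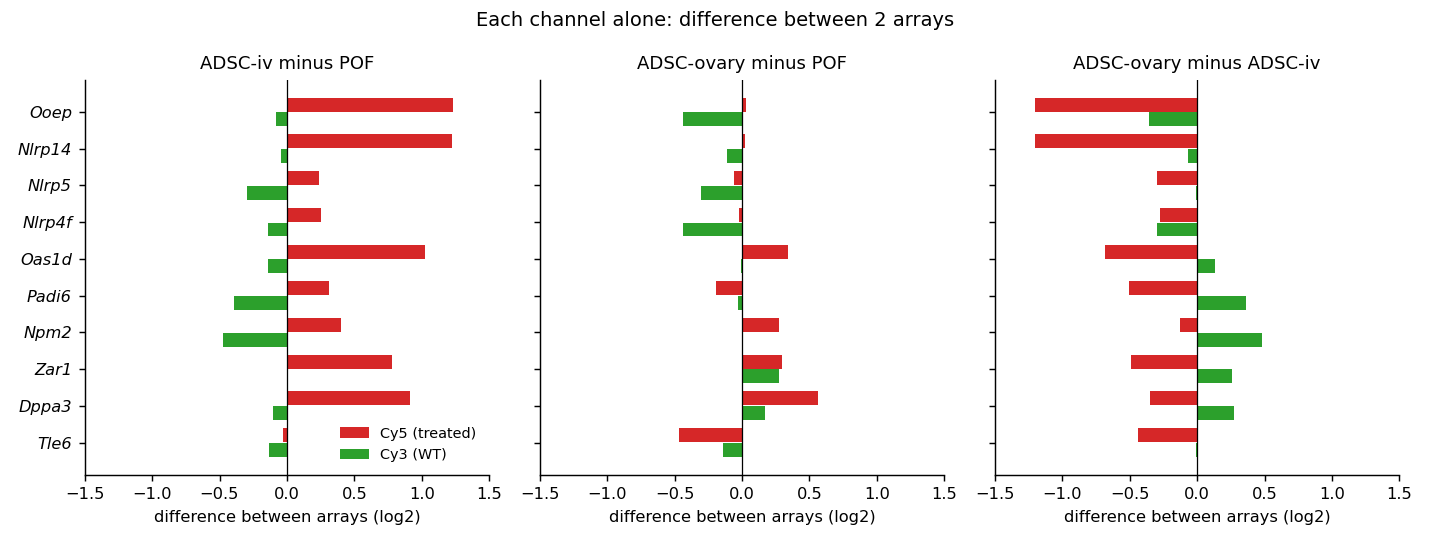
Difference in normalized log2 signal between 2 arrays for each member, in the treated channel (Cy5, red) and the WT channel (Cy3, green). In ADSC-iv minus POF the red bars of Ooep, Nlrp14, Oas1d, Zar1 and Dppa3 are 0.78 or more with green bars of 0.14 or less in size, while Padi6, Npm2, Nlrp5 and Tle6 have longer green than red bars.

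Compared over all 6 channels, the ADSC-iv treated signal was the highest for 8 of the 10 members, the exceptions being Nlrp5, where WT on the POF array was higher, and Tle6, where POF was. Among the 9 members above background in all 6 channels it was highest for 7, while this held for 18.7% of 7851 such genes. The order of the treated groups was ADSC-iv, then ADSC-ovary, then POF in 6 members, and ADSC-iv, then POF, then ADSC-ovary in 3 (Nlrp5, Nlrp4f and Padi6). For Nlrp4f this order rests on averages of mostly undetected signals, 7.61 in POF and 7.59 in ADSC-ovary ovaries. At its probe 18030, ADSC-ovary (8.22) was above POF (8.02, not above background). Tle6 was highest in POF. The shares of all genes with each of these orders were not counted. ADSC-iv exceeded all 3 WT signals in 9 of 10 members (31% of genes with all 6 channels above background). Among the 9 were Tle6, only just above them, and Nlrp4f, whose WT was not above background.

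After cyclophosphamide alone the members were close to WT. POF minus WT ran from -0.40 (Nlrp5) to 0.24 (Padi6), with 3 of 10 above 0 (51.7% of 9486 genes were) and 0 at least 2-fold higher or lower (1.16% and 0.928% of genes were). None reached 1.5-fold either way (3.91% of genes were that much higher and 4.1% lower). The POF signal was below all 3 WT signals for 5 members (29.6% of genes), above them for 3 (31.8%) and between them for 2. Ooep (-0.32), Nlrp14 (-0.29), Oas1d (-0.24) and Dppa3 (-0.14) were below WT in the main setting and in all alternatives but centring on all gene probes. There they were at 0.17, 0.14, 0.16 and 0.15, with the median of all genes moved up by 0.32 to 0.33, so that they lay below the median gene in that setting too. Padi6, Npm2 and Tle6 were above 0 and Nlrp5 below 0 in 10 of 10 alternatives.

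Against WT, 10 of 10 members were above 0 in ADSC-iv ovaries (50.4% of 10156 genes were), from 0.14 (Nlrp5) to 0.995 (Ooep). None was at least 2-fold higher (2% of genes were) or lower (0.551%), and 7 were at least 1.5-fold higher (6.71%). Closest to 2-fold were Ooep (0.995) and Nlrp14 (0.98). Other background corrections, centrings and the authors' values put 1 to 6 members past it, in 2 settings with the dim Nlrp4f among them. These 7 were the members other than Nlrp5, Nlrp4f and Tle6, and they lay in a narrow band, the lowest being Zar1 (0.75). In ADSC-ovary ovaries the members lay around WT, from -0.27 (Tle6) to 0.39 (Nlrp4f), with 7 of 10 above 0 (50.2% of 9942 genes) and 0 at least 2-fold higher (2.68%) or lower (0.352%). None reached 1.5-fold (6.38% of genes were that much higher and 3.64% lower). The ADSC-ovary signal exceeded all 3 WT signals for 5 members (31.5% of genes), lay below them for 3 (39.3%) and between them for 2.

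By size of the difference from POF, 8 of 10 members were closer to it in ADSC-ovary than in ADSC-iv ovaries, Tle6 (-0.33 against 0.10) and Nlrp4f (0.41 against 0.39) being the exceptions. The share of all genes for which this held was not counted. Members were chosen above all by their difference between ADSC-iv and POF, so nothing is read from this count. ADSC-ovary minus POF had a median of 0.25, with 8 of 10 above 0 (50.2% of 9077 genes) and 0 at least 2-fold higher (0.65%) or lower (0.154%), or at least 1.5-fold higher (3.87%) or lower (2.96%). Ooep had the largest value (0.47), but its treated channel differed by 0.03 and its WT channel by -0.44. Dppa3 was the clearest in the treated channel, at 0.56 with 0.17 in WT, and Tle6 was lower there by 0.47. The members' median in the treated channel alone was 0.03. Both differences from POF share the POF array and are given side by side only.

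Set directly against each other, ADSC-ovary ovaries were below ADSC-iv ovaries in 9 of 10 members, with a median of -0.69 (50.4% of genes were above 0), and 7 were at least 1.5-fold lower, which 2.9% of genes were. Nlrp14 (2.19-fold lower), Padi6 (1.82-fold), Ooep (1.79-fold) and Oas1d (1.76-fold) led, and Nlrp4f was at 0.02. In the treated channel alone, 10 of 10 were lower, with a median of -0.46 (0.01 for all genes). The Nlrp4f value in this count is an average that includes probes not above background. The share of all genes lower there was not counted. Ooep and Nlrp14 differed by -1.20 there and Oas1d by -0.68. Npm2 differed by only -0.13 in the treated channel, with 0.48 in WT.

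**Figure D4:**
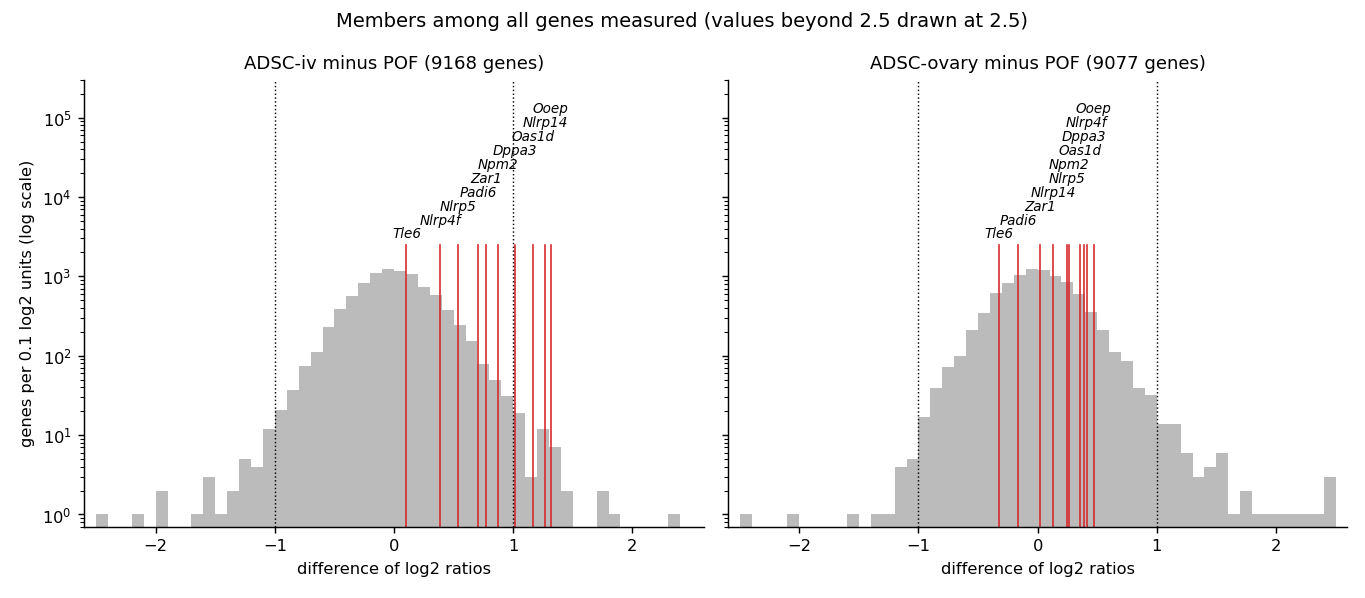
Histograms of the difference in log2 ratio over all measured genes (vertical axis on a log scale), with the members marked by red lines and 2-fold by dotted lines. In ADSC-iv minus POF the members run from 0.10 to 1.32, and in ADSC-ovary minus POF from -0.33 to 0.47.

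The genes whose ratios on the 3 arrays lay nearest to the median profile of the members were sought by the root mean square difference over the 3 arrays, among the 28 genes above background throughout whose ADSC-iv ratio was 2-fold or more over that of POF. Gdf9 was nearest, at 0.03 log2 units, followed by Zar1l (0.08), Oosp2 (0.10), Pramel13 (0.10), H1f8 (0.13), Fbxw21 (0.15), Tcea1 (0.15) and Kazald1 (0.17). With 3 points per profile this likeness is loose, and the difference between the ADSC-iv and POF arrays was part of the choice.

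Other genes of maternal stores are given from fixed lists, beside the 49.4% of all genes that were above 0 and the 0.513% at least 2-fold higher in ADSC-iv minus POF. Of 24 further maternal-effect genes on the array, 16 were measured, 12 were above 0 and 1 was at least 2-fold higher, with a median of 0.28. Zar1l, the paralog of Zar1, was at 1.07, the beta-catenin regulator Zbed3 at 0.70, the small-RNA endonuclease Dicer1 at 0.68 and the DNA methyltransferase Dnmt1 at 0.57. Among 39 paralogs of the members, 16 were measured, with a median of 0.30, 14 above 0 and 2 at least 2-fold higher. These were Zar1l and Nlrp4a (1.05), and the oocyte and stem cell gene Dppa5a was at 0.89. Nlrp4e was at 0.82 with WT above background on 0 of 3 arrays, so only its treated channel was measured, where it differed by 0.56. NLRP and OAS paralogs are close in sequence, and how far a probe for a member also binds a paralog's RNA was not tested.

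Oocyte genes outside the maternal-effect list were mostly above 0 in ADSC-iv minus POF, with few at least 2-fold higher. Of 8 measured genes for secreted and zona proteins, 6 were above 0 and 2 at least 2-fold higher, with a median of 0.65, led by Astl (1.07, with POF not above background), which encodes a protease of the egg, the growth factor Gdf9 (1.04), Oosp1 (0.75) and the zona protein Zp2 (0.66). The 12 measured genes of RNA storage and meiosis had a median of 0.36 with 10 above 0 and 1 at least 2-fold higher, led by the oocyte linker histone H1f8 (1.03), Rfpl4 (0.82), the piRNA factor Mael (0.64) and the translation regulator Cpeb1 (0.63). The 6 measured oocyte transcription factors had a median of 0.23 with 5 above 0 and 1 at least 2-fold higher. Figla, which switches on zona genes, was at 1.06 (not above background in POF), and Obox5 (0.37), Obox2 (0.25) and Lhx8 (0.20) were closer to 0. In ADSC-ovary minus ADSC-iv, the RNA storage and meiosis list had 0 of 12 above 0 (50.4% of 9457 genes were), with a median of -0.30. The secreted and zona list had a median of -0.70 there.

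**Figure D5:**
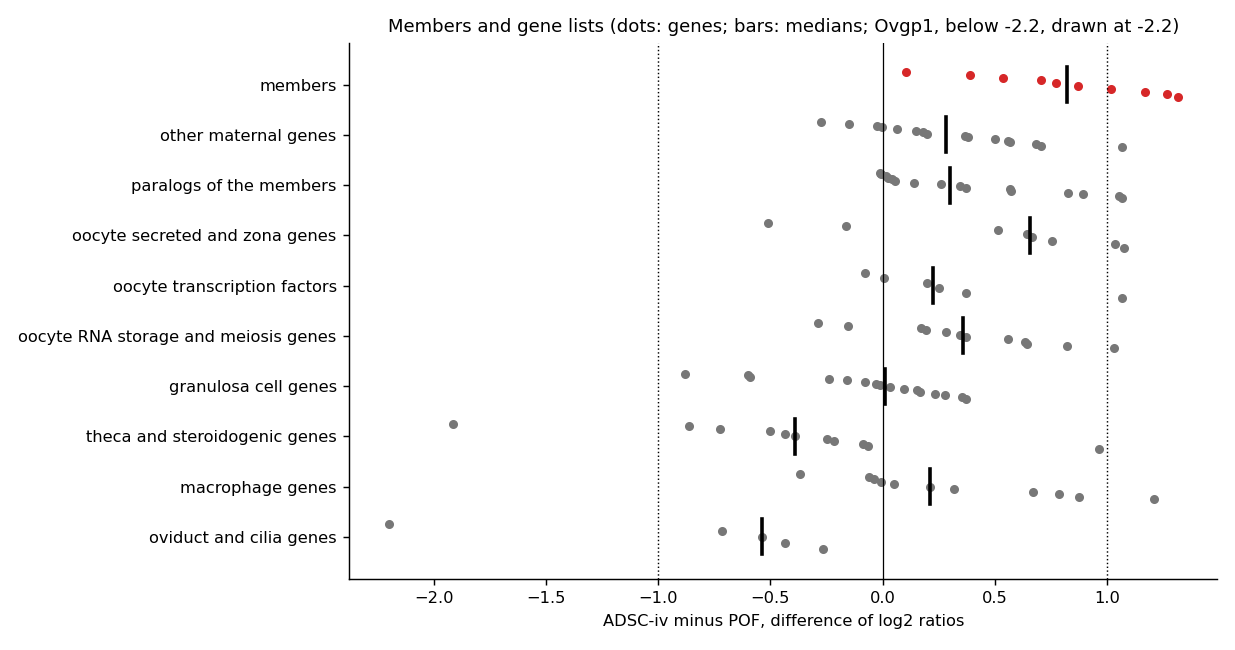
Difference in log2 ratio between the ADSC-iv and POF arrays for the members (red) and the measured genes of each list (grey), with the median of each as a black bar and 2-fold as dotted lines. The members' median of 0.82 is followed by the oocyte secreted and zona genes (0.65), and the theca (-0.39) and oviduct lists (-0.54) lie below 0. The members were chosen above all by this difference, so nothing is read from their place among the lists.

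Gene lists of other cells had medians of -0.54 to 0.21 in ADSC-iv minus POF. The 16 measured granulosa genes had a median of 0.01 with 8 above 0, the extremes being the oocyte growth ligand Kitl (-0.88), Serpine2 (-0.60) and the estradiol-forming enzyme Hsd17b1 (-0.59) below and the BMP receptor Bmpr1b (0.37) above. The median of the 11 measured theca and steroidogenic genes was -0.39 with 1 above 0. That was Gli1 (0.96), of which 0.30 was in the treated channel and -0.67 in WT, itself above background on 1 of 3 arrays. The androgen-forming enzyme Cyp17a1 was at -1.91, Fdxr at -0.86 and Cyp11a1 at -0.72. The 11 measured macrophage genes had a median of 0.21 with 7 above 0, led by Lyz2 (1.21), Ms4a7 (0.87), Adgre1 (0.79) and Aif1 (0.67). The Aif1 value lay in the WT channel (-0.68), with -0.01 in the treated channel. All 5 measured oviduct and cilia genes were below 0, with the oviductal glycoprotein Ovgp1 at -3.90, Dynlrb2 at -0.72, Epcam at -0.54 and Rsph1 at -0.43. WT was above background on 0 of 3 arrays for Ovgp1 and Dynlrb2, whose treated channels differed by -4.10 and -0.97. Of genes that the embryo switches on later, only Cdx2 was measured (-0.17).

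The summed signals of defining markers differed between the groups and are given for that reason. For 7 oocyte markers the sum was 11123 in POF, 16201 in ADSC-iv and 9851 in ADSC-ovary ovaries against 10304 to 11489 in WT, with all 7 above background in ADSC-iv, 5 in POF and 6 in ADSC-ovary. For 8 granulosa markers it was 90691, 83629 and 58265 in the treated groups, below the 135277 to 145968 of WT, with Amh above background in no channel. For 4 theca markers it was 49429, 17035 and 32544 against 32675 to 40058, with Ptch1 above background in no channel. The 5 macrophage markers had 26643, 29155 and 39566 against 12453 to 13914. The 4 oviduct markers had 5404, 773 and 893 against 596 to 769, with Foxj1 and Pax8 above background in no channel. Granulosa, theca, macrophage and oviduct RNA thus differed to varying extents from POF to ADSC-iv, and their part in the members' values, through the share of oocyte RNA in the total, was not tested.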

How the data were processed

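Ovary RNA of 4 groups was measured on 3 two-colour spotted arrays, 1 per treated group. Per the file headers, the scanner files that were deposited give each spot's median intensity and its local background median and SD in both channels, neither background-subtracted nor normalized. The submitters used LuxScan 3.0, per the series' design text. The authors' deposited value table holds log2 ratios of Cy5 over Cy3 by a normalization not given in the sources used here. It correlated with the raw log2 ratios at r of 0.943 to 0.966 and was an alternative only.

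Intensities were background-corrected (normexp, offset 50) and loess-normalized within arrays with limma 3.58.1 under R 4.3.3, control spots having weight 0. Single-channel signals were scaled with Aquantile. Probes of a gene were averaged. A gene was measured if, on each array used, 1 or more of the channels compared exceeded background, and values of 1 or more in size on the log2 scale (2-fold) were counted. With 1 array a group no test was made, and this number of arrays limits all precision. Array names were matched to RefSeq genes (GRCm38.p6), which gave 14166 symbols and 3898 synonyms. 9 alternatives were planned, and 1 was added after seeing the data. Members and lists were chosen with earlier results of these data known. The text names all members with their probes, up to 4 genes per list with the largest absolute difference between ADSC-iv and POF, any at or past 2-fold there, and the 8 genes nearest in profile.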

Additional observations from a re-analysis of the deposited data

Results flagged for a closer look

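By ratio to WT, Padi6 and Tle6 differed from POF in opposite directions in the cell-treated groups. In the treated channel alone only Padi6 did so, and Tle6 was lower than POF in both groups. For Padi6, ADSC-iv minus POF was 0.70 and ADSC-ovary minus POF -0.16. For Tle6 the same differences were 0.10 and -0.33. With 1 array a group the difference between the groups was not tested, and both share the POF array. The ADSC-iv value of Tle6 turned to -0.07 with arrays centred on all gene probes, where the median of all genes was -0.11. Both Padi6 values kept their signs in 10 of 10 alternatives. In the treated channel alone Padi6 differed from POF by 0.31 (ADSC-iv) and -0.19 (ADSC-ovary), and Tle6 by -0.03 and -0.47.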

How the results depend on the processing

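Values were recomputed under 10 alternatives (2 for the channels alone), and counts of members also at 1.5-fold. Centring each array on the median of all gene probes, dim ones included, was chosen after seeing the data. No called value changed sign. Of the values of single members, 503 stayed within the spread between probes and 80 did not. The count of members 2-fold or more above WT in ADSC-iv was 0, and became 7 at a 1.5-fold threshold, 3 with background subtracted, 1 with no background correction, 3 with median centring over probes above background, 3 in the authors' values and 6 with centring over all gene probes. At 1.5-fold, 7 members were higher in ADSC-iv than POF (4 at 2-fold) and 7 lower in ADSC-ovary than ADSC-iv (1 at 2-fold). In POF against WT, 1 member was 2-fold higher in the authors' values (Nlrp4f, 1.67), and the members' median went from -0.08 to -0.21 with median centring and 0.16 with centring over all gene probes. The latter gave 1.10 for ADSC-iv against WT, 0.27 for ADSC-ovary against WT and 0.0865 for ADSC-ovary minus POF (main value 0.25), which was 0.0857 with no background correction. It moved the all-gene median by 0.32, 0.17 and 0.15 on the POF, ADSC-iv and ADSC-ovary arrays. The members' median for ADSC-ovary minus ADSC-iv was -0.84 in the authors' values, and that of WT alone for ADSC-iv minus POF was 0.0312 with channel medians only. Genes at least 2-fold higher and lower numbered 571 and 224 in the authors' values against 110 and 88 for POF against WT, 664 and 196 against 203 and 56 for ADSC-iv against WT, 728 and 153 against 266 and 35 for ADSC-ovary against WT, 239 and 341 against 47 and 32 for ADSC-iv minus POF, 310 and 313 against 59 and 14 for ADSC-ovary minus POF, and 379 and 265 against 60 and 31 for ADSC-ovary minus ADSC-iv. With background subtracted they numbered 376 and 246, 519 and 207, 576 and 178, 189 and 225, 230 and 190, and 260 and 182 in the same order, and with centring over all gene probes 264 and 30, 433 and 28, 442 and 22, 37 and 67, 48 and 68, and 60 and 48. Median centring gave 88 and 131 for POF against WT, 82 and 34 for ADSC-iv minus POF and 93 and 19 for ADSC-ovary minus POF. With no filter on dim genes the 3 differences between arrays had 134 and 110, 177 and 100, and 156 and 95. Whether higher or lower genes were more numerous thus changed with the setting for POF against WT and for both differences from POF. The causes were not tested. No paired analysis was possible because each group has 1 array. Dim genes such as Nlrp4f and Nlrp5 are limited by signal over background.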

Other observations

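Of the OAS family, to which Oas1d belongs, Oas1a, an interferon-induced enzyme, was above WT in every treated group, at 1.24 in POF, 1.37 in ADSC-iv and 1.65 in ADSC-ovary ovaries. Oas2 (0.73, 1.30 and 1.33) and Oasl2 (1.05, 1.11 and 1.19) were above WT on all 3 arrays as well. Oas1c was at 0.34, 0.90 and 0.26, and Oas1d at -0.24, 0.93 and 0.12. Oasl1 (0.82, 0.86 and 1.35) and Oas1h (0.53, 0.56 and -0.01) had WT above background on 0 of 3 arrays. In ADSC-iv minus POF, Oas1a was at 0.14, Oasl2 at 0.06, Oasl1 at 0.04, Oas1h at 0.03, Oas2 at 0.57, Oas1c at 0.57 and Oas1d at 1.17. Oas1a, Oas1c, Oas2 and Oasl2 were above background in all 6 channels. These genes were singled out after their values were seen, and differences between them were not tested.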
